A study of Arabidopsis with 9 samples.

Results

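The mitochondrial genome of Arabidopsis was examined through the loci of the deposited RNA sequencing table whose gene identifier starts with ATMG, the prefix of mitochondrial genes. The rule was applied to single and comma-joined names and used no measured value. It found 133 of the 31747 loci in the table, holding 145 identifiers, and all 133 lie on the sequence that the table calls Mt. Of these loci, 124 have 1 identifier and 9 are merged loci that hold 23 identifiers between them, whose reads cannot be split.

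The study sequenced total RNA of whole 14-day-old seedlings grown in long days, with 3 biological replicates labelled for each of syd-5, swi3d-1 and the wild type (WT), and no treatment. Both genes encode parts of nucleosome-moving SWI/SNF complexes, SYD the ATPase motor and SWI3D one of the core scaffold proteins. The labels name the alleles alone and do not say what kind of mutation each is or which strain the WT is. The authors' deposited table, the source of every value here, holds 1 pooled value per locus for each of 3 conditions, named syd-5, 310-3d and WT, and the authors' own test of each of the first 2 against WT. The name 310-3d matches no label, so it is kept as the table writes it. No condition is called swi3d-1, and no name in the table equates that genotype with 310-3d. Values are in FPKM, fragments scaled to transcript length and sequencing depth. The table has no value per replicate and no depth, so no replicate spread or detection limit can be computed, errors are known through the authors' test alone, and the part that single libraries play cannot be examined.

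The targeted genes were looked at first in the authors' deposited table. SYD had 4.11 FPKM in syd-5, 24.3 in 310-3d and 23.1 in WT (q = 0.000567 in syd-5 and q = 0.767 in 310-3d). SWI3D, which RefSeq lists as CHB3 (AT4G34430), had 16.01 FPKM in syd-5, 3.81 in 310-3d and 16.4 in WT (q = 0.903 in syd-5 and q = 0.000567 in 310-3d). SWI3D was thus called lower in 310-3d alone, the condition left beside syd-5 and WT. The name 310-3d is kept because no label states the match, and these levels were not used to assign it to a genotype. The tissue was checked with 2 shoot genes and 2 root genes. Neither shoot gene, the antenna gene CAB1 or the Rubisco gene RBCS1A, passed the test in either comparison, though both stood below WT in both. CAB1 had 1743 FPKM in syd-5, 2194 in 310-3d and 2337 in WT (q = 0.107 in syd-5 and q = 0.828 in 310-3d). RBCS1A had 12005.9, 11514.5 and 16594.1 FPKM in the same order (q = 0.423 in syd-5 and q = 0.376 in 310-3d). Both root genes were called higher in syd-5. CASP1, an endodermal gene, had 52.7 FPKM in syd-5, 43.4 in 310-3d and 24.6 in WT and was called in both comparisons. The root hair gene SHV2 (AT5G49270) had 9.78, 8.91 and 6.93 FPKM in the same order and was called in syd-5 alone, with q = 0.00972 there and q = 0.0852 in 310-3d. A change in the share of root tissue was not measured, and its part in the values of the mitochondrial loci was not tested. In whole seedlings, fewer cells of a type and less RNA per cell cannot be told apart.

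Plant mitochondria keep a small genome of their own that encodes core subunits of the respiratory chain and ATP synthase, factors of cytochrome c maturation, some ribosomal proteins, and the ribosomal and transfer RNAs of their own translation. It is copied into RNA by phage-type RNA polymerases encoded in the nucleus, and its transcripts are then spliced, edited and trimmed by other nuclear products. Most mature mitochondrial transcripts carry no lasting poly(A) tail, since in plant mitochondria such a tail marks RNA for decay. How RNA was selected for the libraries is not given in the sources used here, so the levels below describe these libraries and not the RNA content of the organelle. None of the 145 identifiers is in the RefSeq gene table used for names, and the deposited table gives no names, so the loci are called by their identifiers and no role is given to them.

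Most mitochondrial loci had little or no signal. The authors' deposited table lists 81 of the 133 loci, or 60.9%, at 0 in all 3 conditions, against 27.6% of all loci. A further 40 were above 0 but under 1 FPKM in every condition, 10 reached 1 FPKM and 2 reached 10 FPKM. The plastid loci, with identifiers starting with ATCG, were alike in the share at 0, with 40 of 61 (65.6%). The count of mitochondrial loci above 0 was 47 in syd-5, 43 in 310-3d and 43 in WT.

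**Figure D1:**
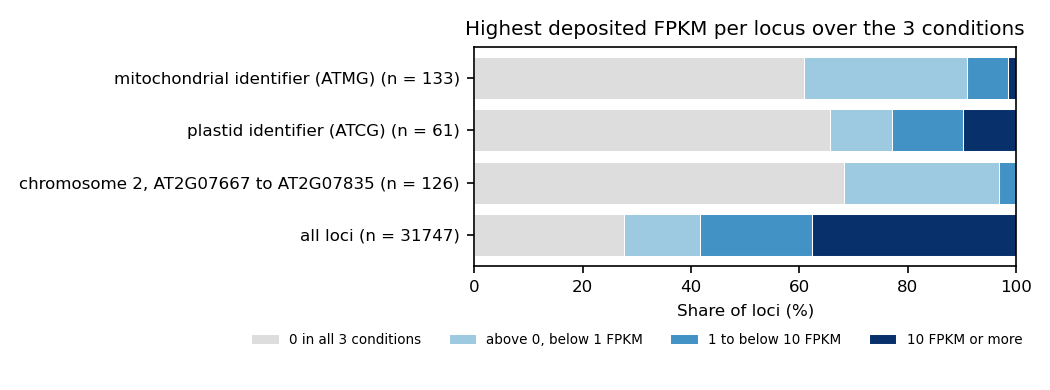
Share of loci (x axis, percent) by the highest FPKM that a locus reached in any of the 3 conditions, for 133 mitochondrial loci, 61 plastid loci, 126 loci of the chromosome 2 identifier range and all 31747 loci. The grey part, loci at 0 in all 3 conditions, is 60.9% for the mitochondrial loci and 27.6% for all loci, and 2 mitochondrial loci reached 10 FPKM.

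A value of 0 in this table may be a failed estimate and is not read as absence of the transcript. Some loci at 0 have the length of genes that respiring cells use. Of the mitochondrial loci with 1 identifier, 8 have a length that no other mitochondrial locus in the table has and that equals the length of exactly 1 named protein gene of the mitochondrial genome in RefSeq (TAIR10.1 assembly). This match is of length alone and pairs no identifier with a name. ATMG00220 has the length of cob, 1182 bases, which encodes apocytochrome b of respiratory complex III, and was listed at 0 in all 3 conditions. ATMG01190 has the length of atp1, 1524 bases, which encodes the alpha subunit of ATP synthase, and was also at 0 throughout. So were ATMG00290 (the length of rps4, 1089 bases), ATMG00980 (the length of rps12, 378 bases) and ATMG00900 (the length of ccmC, 771 bases). The genes rps4 and rps12 encode ribosomal proteins, and ccmC a cytochrome c maturation factor. ATMG00830, with the length of the maturation gene ccmFN1, was listed at 0.0146 FPKM in syd-5 and at 0 in 310-3d and WT. ATMG00960, with the length of ccmFN2, was listed at 0.0945 FPKM in 310-3d and at 0 in syd-5 and WT. The only one of the 8 above 0 in every condition was ATMG00640, with the length of atp4, 579 bases, a gene for a membrane subunit of ATP synthase. It had 1.37 FPKM in syd-5, 1.31 in 310-3d and 1.11 in WT.

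Most of the mitochondrial signal came from 2 loci. In the authors' deposited table the merged locus ATMG01370, ATMG01380 and ATMG01390 (Mt, 358835 to 363428, TAIR10) had 148.9 FPKM in syd-5, 103.1 in 310-3d and 106.0 in WT. ATMG00020 (Mt, 8848 to 11415) had 47.0 FPKM in syd-5, 61.4 in 310-3d and 29.1 in WT. Together they made up 84.0% of the summed FPKM of the 133 loci in syd-5, 83.2% in 310-3d and 85.2% in WT. The merged locus stood at or above 95.0% of all loci of the table in WT, and ATMG00020 at or above 82.3%.

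The summed FPKM of the mitochondrial loci was higher in both mutants. It was 233 in syd-5, 198 in 310-3d and 159 in WT, which is 1.47 times WT in syd-5 and 1.25 times in 310-3d. As a share of all FPKM in the table this was 0.0288% in syd-5, 0.0245% in 310-3d and 0.0181% in WT. The sum over loci of the 5 nuclear chromosomes was 0.925 times WT in syd-5 and 0.922 times in 310-3d. Without the 2 leading loci the others summed to 37.4 FPKM in syd-5, 33.1 in 310-3d and 23.5 in WT. These sums have 1 value per condition and no test. For the plastid loci the sum was 935 FPKM in syd-5, 339 in 310-3d and 641 in WT. In 310-3d this sum over all 61 plastid loci was below WT. Of these loci, 40 were at 0 in all 3 conditions and 14 reached 1 FPKM in some condition. Only 11 of the 14 were tested in 310-3d, so their calls and median do not describe the same set as the sum. Of these 11, 2 were called higher and 0 lower, against 13.7% and 14.4% of all loci. Their median log2 fold change was 0.76 on the scale of log2(FPKM + 1). One of them, ATCG00020, had 121.9 FPKM in 310-3d and 30.8 in WT.

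Of the 133 loci, the authors' status field marks 18 as tested in syd-5 and 16 in 310-3d, and all 16 are among the 18. The other 115 in syd-5 and 117 in 310-3d were not tested, and none of them exceeded 0.814 FPKM in any condition. The test is Cuffdiff's, with its q, a p-value adjusted for many tests, below 0.05 taken as a call. The standard error implied by a log2 ratio and its test statistic had a median of 0.88 over the tested mitochondrial loci in each comparison, against 0.30 over all tested loci. The 2 most abundant loci were not among the imprecise ones. ATMG00020 had 0.22 in syd-5 and 0.25 in 310-3d, and the merged locus of ATMG01370 to ATMG01390 had 0.29 and 0.32.

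**Figure D2:**
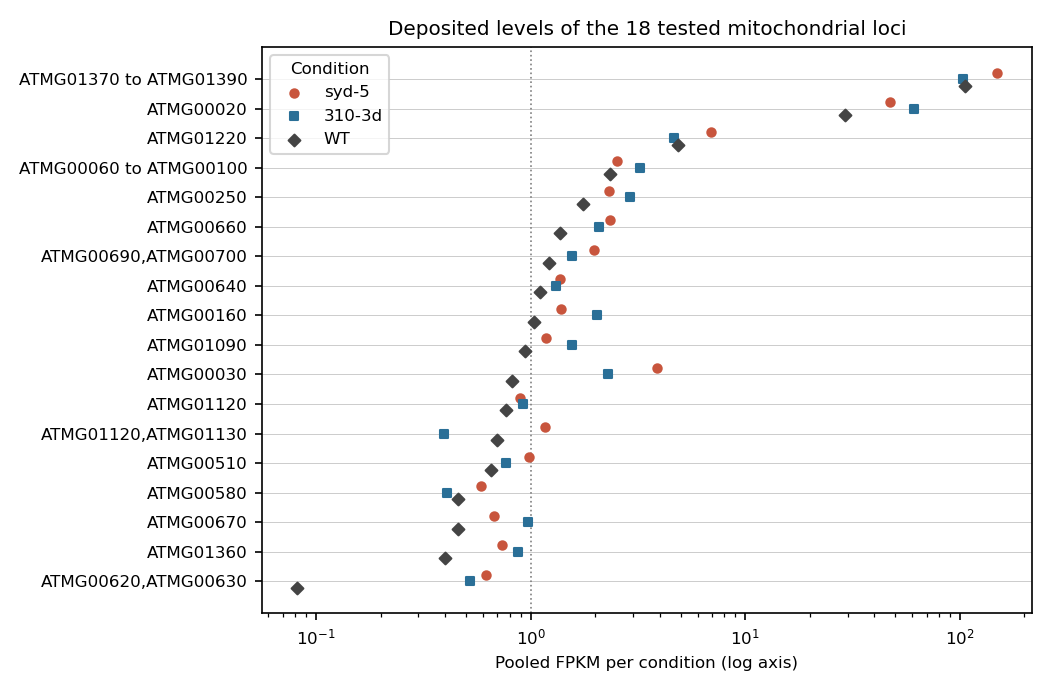
Pooled FPKM (x axis, log scale) of the 18 tested mitochondrial loci in syd-5 (circles), 310-3d (squares) and WT (diamonds), 1 value per condition with no replicate error, ordered by WT level. The merged locus of ATMG01370 to ATMG01390 reaches 148.9 FPKM in syd-5, ATMG00020 is lowest in WT at 29.1 FPKM, and most other loci lie near the dotted line at 1 FPKM.

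The comparison of syd-5 with WT gave 2 mitochondrial calls, both rises, among the 12 tested loci that reached 1 FPKM in some condition. ATMG00020 rose 1.62-fold, with a log2 ratio of 0.69, an implied standard error of 0.22 and q = 0.000567, the smallest q in the table. The merged locus of ATMG01370, ATMG01380 and ATMG01390 rose 1.40-fold, with a log2 ratio of 0.49, an implied standard error of 0.29 and q = 0.00528. The interval computed from this error runs from -0.07 to 1.05 and includes 0, so the error and the q differ for this call. Calls of a rise made up 13.8% of all 18442 loci tested at this level, so 2 of 12 is near the background. No mitochondrial locus was called lower, where the background is 14.1%. Of the 18 tested loci, 5 had an unadjusted p under 0.05, all with a ratio above 0. The share of all tested loci with such a p is not given here. Calls at q below 0.05 already made up 13.6% higher and 13.6% lower of them, so this count is not read as an excess.

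Under 1 FPKM in every condition, the authors' deposited table calls 1 further locus in syd-5. The merged locus ATMG00620 and ATMG00630 (Mt, 182189 to 184905) had 0.618 FPKM in syd-5 and 0.0814 in WT, with q = 0.0262. It also had 0.524 FPKM in 310-3d, where it was not tested. Its log2 ratio in syd-5 was 2.92 with an implied standard error of 3.77, larger than the ratio, so the test statistic and the q do not give the same picture of its precision. With it, 3 of 18 tested loci were called higher, against 13.6% of all tested loci. ATMG01360 (Mt, 347294 to 352772) came next, with 0.738 FPKM in syd-5 and 0.400 in WT and q = 0.0554.

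All 18 tested loci stood higher in syd-5 than in WT, with log2 ratios between 0.12 and 2.92 and a median of 0.54, except that with quantile normalization the merged locus of ATMG00060 to ATMG00100 moves to -0.000924. Over all tested loci 51.4% stood higher, with a median of 0.01. Each mitochondrial locus ranked above at least 59.9% of all tested loci by its log2 ratio, with a median of 83.9%. These loci share libraries and their values are not independent, so the count describes these 2 pooled conditions and carries no test. Whether a locus was tested can also depend on its mutant value. ATMG00580 and the merged locus ATMG00620 and ATMG00630 were tested in syd-5 but not in 310-3d, against the same WT values. Among the 115 loci not tested in syd-5, 25 stood higher than WT and 7 lower. The loci that did not pass the test include ATMG00030, with 3.88 FPKM in syd-5 and 0.821 in WT (log2 ratio 2.24, implied standard error 1.73, q = 0.185). ATMG01220, the third most abundant, had 6.93 FPKM in syd-5 and 4.86 in WT (q = 0.527). ATMG00660 had 2.34 FPKM in syd-5 and 1.36 in WT, with q = 0.440. Over all 133 loci, untested ones included, 43 stood higher in syd-5, 7 lower and 83 were at 0 in both. Of the loci with unequal values, 86% of the mitochondrial ones stood higher, against 52.5% of all loci in the table. Among loci under 1 FPKM in every condition these shares were 81.6% and 58.2%.

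The comparison of 310-3d with WT gave 1 mitochondrial call, a rise, among the 12 tested loci with at least 1 FPKM. ATMG00020 rose 2.11-fold in the authors' deposited table, with a log2 ratio of 1.08, an implied standard error of 0.25 and q = 0.000567. Rises made up 13.7% of the 18450 loci tested at this level and falls 14.4%, so 1 rise and 0 falls among 12 are not above the background. The merged locus of ATMG01370, ATMG01380 and ATMG01390 did not pass the test, at 103.1 FPKM in 310-3d and 106.0 in WT, with a log2 ratio of -0.04, an implied standard error of 0.32 and q = 0.906. Its ratio moves to 0.03 with quantile normalization and to 0.08 with sums over nuclear loci made equal, so it has no stable sign.

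Below 1 FPKM, ATMG01360 was called in 310-3d. It rose to 0.874 FPKM in 310-3d, against 0.400 in WT, with a log2 ratio of 1.13, an implied standard error of 0.65 and q = 0.0147. The interval computed from this error runs from -0.14 to 2.40 and includes 0, so here too the error and the q differ. With a pseudocount of 1 the log2 ratio of ATMG01360 was 0.42. With this locus, 2 of 16 tested loci were called higher, against 13.4% of all tested loci. ATMG00020 and ATMG01360 were the only tested mitochondrial loci with an unadjusted p under 0.05 in this comparison. The share of all tested loci with such a p is not given here. Among the others, ATMG00250 had 2.91 FPKM in 310-3d and 1.76 in WT (q = 0.178), and ATMG00160 had 2.05 and 1.04 FPKM in the same order (q = 0.363).

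**Figure D3:**
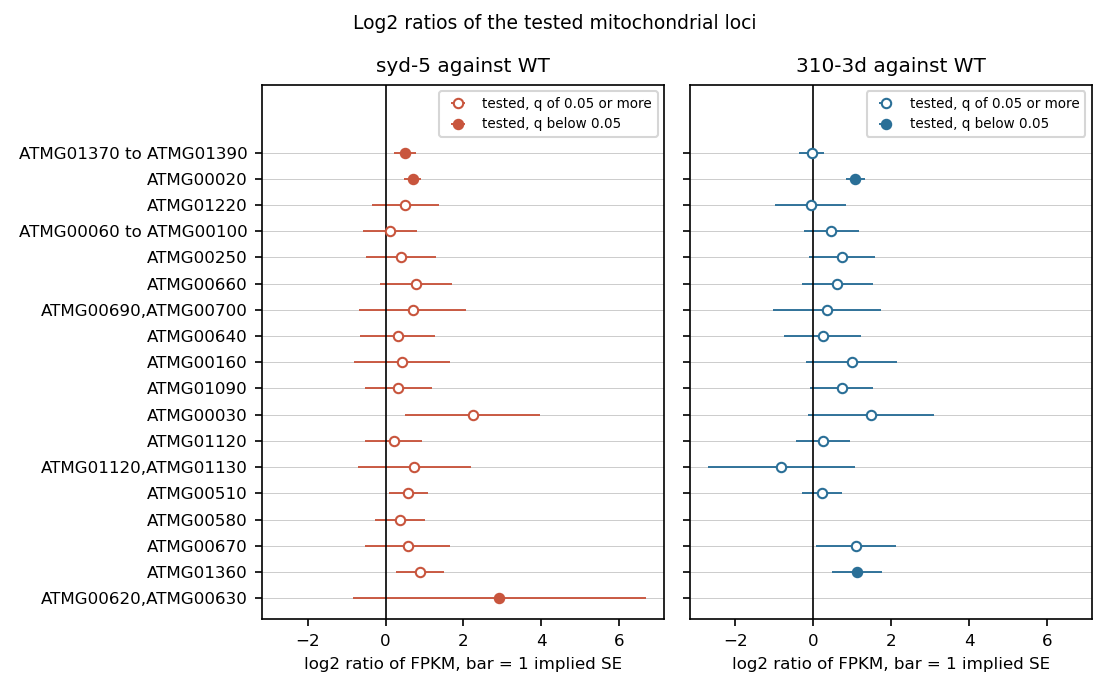
Log2 ratio of FPKM to WT (x axis) of the tested mitochondrial loci in syd-5 (left, 18 loci) and 310-3d (right, 16 loci), with bars of 1 implied standard error and filled points for q below 0.05. ATMG00020 is called in both panels at 0.69 and 1.08, and most open points have bars that cross 0.

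In 310-3d 13 of the 16 tested loci stood higher than WT and 3 lower, with log2 ratios between -0.82 and 1.49 and a median of 0.54. Of the 3 lower ones, the merged locus of ATMG01370 to ATMG01390 changes sign as given above, and ATMG01220, with 4.66 FPKM in 310-3d and 4.86 in WT, moves to 0.05 with equal sums over nuclear loci. Over all tested loci 48.6% stood higher, with a median of -0.01. The lowest ratio was that of the merged locus ATMG01120 and ATMG01130, with 0.395 FPKM in 310-3d and 0.698 in WT (q = 0.508). The median mitochondrial locus ranked above 84.0% of all tested loci. Over all 133 loci 30 stood higher in 310-3d, 18 lower and 85 were at 0 in both. Among the 117 not tested, 17 stood higher and 15 lower. Of the loci with unequal values, 62.5% of the mitochondrial ones stood higher, against 50.1% of all loci in the table. Among loci under 1 FPKM in every condition these shares were alike, at 58.3% and 58.1%. The WT values are the same in both comparisons, so a low WT value raises both ratios, and the 2 comparisons do not support each other.

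**Figure D4:**
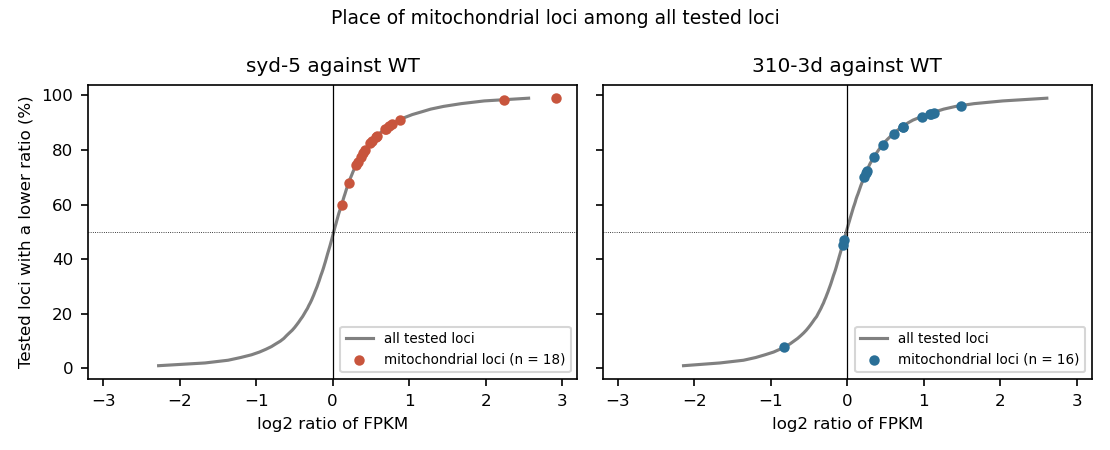
Share of tested loci with a lower log2 ratio (y axis, percent) against the log2 ratio of FPKM to WT (x axis), with all tested loci as a grey line and the tested mitochondrial loci as points, for syd-5 (left) and 310-3d (right). With FPKM as deposited all 18 points lie right of 0 in syd-5, and 13 of 16 do in 310-3d. Other scalings move 1 of the points nearest 0 across it in syd-5 and 2 in 310-3d.

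The mutants were compared with each other by the difference of their log2 ratios over the implied standard errors divided by 1.74, which brings them to the scale of the authors' p, taken as normal, with Benjamini-Hochberg adjustment over all loci. Of all 18382 loci tested 0.0598% were called higher in 310-3d and 0.0326% lower, a background of few calls. None of the 12 mitochondrial loci with at least 1 FPKM passed q < 0.05, and 2 had an unadjusted p under 0.05, against 0 with the errors left undivided. The share of all loci with such a p is not given here. ATMG00020 had 61.4 FPKM in 310-3d and 47.0 in syd-5, a difference of 0.39 in log2 (q = 0.9999). The merged locus of ATMG01370, ATMG01380 and ATMG01390 had 103.1 FPKM in 310-3d and 148.9 in syd-5, a difference of -0.53 (q = 0.9999). The call of the merged locus in syd-5 and its absence in 310-3d are therefore not shown to be a difference between the mutants.

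The median log2 fold change, on the scale of log2(FPKM + 1), was 0.38 in syd-5 and 0.36 in 310-3d over the 12 loci with at least 1 FPKM, and 0 in both over all 133. Over all loci tested at this level it was 0.01 in syd-5 and -0.01 in 310-3d. Of the 12, 3 reached 1 FPKM only through a mutant value and so had to differ, and these medians are given as a description.

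Reads of the mitochondrial loci may also fit elsewhere. In the reference strain a large copy of mitochondrial DNA lies in chromosome 2 near the centromere, and how the authors' alignment treated reads with several matches is not given in the sources used here. The identifier range AT2G07667 to AT2G07835 has 128 loci in the table, of which MCM5 and ABCC13 are named nuclear genes with their own functions and were set aside after their values were seen. Of the other 126 loci, 86 were at 0 in all 3 conditions and 4 reached 1 FPKM. Their sum was 13.9 FPKM in syd-5, 15.4 in 310-3d and 10.9 in WT. Among the 4 tested at this level, the merged locus of AT2G07689, AT2G07792 and AT2G07808 was called lower in syd-5, with 1.598 FPKM against 3.87 in WT (q = 0.0399), and none was called in 310-3d. The part of shared reads in the mitochondrial values was not tested.

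Overlap within the mitochondrial genome is a further limit. The table lists 9 intervals more than once, for 19 of the 133 loci, and whether the counting used strand is not given in the sources used here. ATMG00160 is listed at 2 loci of the same interval (Mt, 38558 to 43289). One had 1.39 FPKM in syd-5, 2.05 in 310-3d and 1.04 in WT, and the other 0.426, 0.455 and 0.353 in the same order. Likewise, ATMG01120 alone had 0.888 FPKM in syd-5, 0.917 in 310-3d and 0.769 in WT, while the locus of ATMG01120 and ATMG01130 over the same interval had 1.16, 0.395 and 0.698. Reads of such pairs cannot be told apart without strand.

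Nuclear genes that serve mitochondria were set beside these loci. Calls in each list are to be read against the share among all loci tested at 1 FPKM or more, which was 13.8% higher and 14.1% lower in syd-5 and 13.7% higher and 14.4% lower in 310-3d. In the list of respiratory subunits encoded in the nucleus, 1 of 35 tested loci was called higher and 0 lower in syd-5, and likewise in 310-3d, with a median log2 fold change of 0.05 in syd-5 and -0.05 in 310-3d. Both counts are below these shares. The call was CYTC-2, a gene for cytochrome c, the electron carrier between complexes III and IV. It had 53.0 FPKM in syd-5, 53.5 in 310-3d and 38.2 in WT, with q = 0.0131 in syd-5 and q = 0.00942 in 310-3d.

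The nuclear genes of mitochondrial transcription, splicing and RNA handling had 0 calls among 16 tested loci in syd-5, and 1 rise and 0 falls in 310-3d, also below these shares. That rise was MGP3 (AT1G68990), a mitochondrial RNA polymerase, with 9.08 FPKM in 310-3d and 6.90 in WT (q = 0.0442). Genes that keep up mitochondrial DNA had 1 rise and 2 falls among 11 in syd-5 and 1 rise and 3 falls in 310-3d. The falls stood above these shares and the rises below them, on few loci and with no test. POLGAMMA2, a DNA polymerase of the organelles, fell to 16.6 FPKM in syd-5 and 17.1 in 310-3d, against 22.2 in WT. Its relative POLGAMMA1, at a locus merged with AT3G20530, rose to 20.0 FPKM in syd-5 and 21.3 in 310-3d, against 15.1 in WT. AT5G50340 fell to 6.07 FPKM in syd-5 and 6.37 in 310-3d, against 9.38 in WT. MSH1, which guards organelle DNA against recombination, fell to 2.99 FPKM in 310-3d, against 4.47 in WT (q = 0.00424).

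Genes of alternative respiration and mitochondrial stress had the most calls of these lists. The lists were chosen with earlier results of these data known, so their counts are a description and carry no test. The authors' deposited table has 6 of 12 tested at 1 FPKM or more as higher and 1 as lower in syd-5, against a background of 13.8% and 14.1%. In 310-3d 6 were called higher and 2 lower, against 13.7% and 14.4%. AT2G21640 had 29.9 FPKM in syd-5, 26.2 in 310-3d and 6.13 in WT. The merged locus of AT5G51440, RIN3 and RGF5 had 86.6 FPKM in syd-5, 60.2 in 310-3d and 18.8 in WT, and its reads cannot be split. AOX1D, an alternative oxidase that passes electrons from ubiquinol to oxygen past complexes III and IV, had 5.35 FPKM in syd-5, 3.31 in 310-3d and 1.95 in WT, with q = 0.000567 in syd-5 and q = 0.0356 in 310-3d. NDB2, an external NADH dehydrogenase, had 24.9 FPKM in syd-5, 25.1 in 310-3d and 12.7 in WT, with q = 0.000567 in both. The fall in both was NDA1, an internal NADH dehydrogenase, with 2.91 FPKM in syd-5, 2.90 in 310-3d and 4.56 in WT. AOX1A, the main alternative oxidase gene, added outside the rule for named genes, had 58.9 FPKM in syd-5, 52.8 in 310-3d and 48.0 in WT and did not pass the test (q = 0.0741 in syd-5 and q = 0.502 in 310-3d).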

How the data were processed

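RNA of 9 labelled samples, 3 each of syd-5, swi3d-1 and WT, was measured. The submitters' processing notes list the TAIR10 genome and, with no role or setting, Cuffdiff 2.1.1, Cufflinks 2.1.1 and TopHat2 2.1.1. The authors deposited FPKM, with 1 pooled value for a locus in a condition. Beside it, per the file headers, stand a test score, a p-value and a q-value that the authors computed for syd-5 or 310-3d against WT. The smallest q is 0.000567, shared by many loci. The authors' log2 column was not used. It was recomputed from FPKM, since spreadsheet text replaced some cells.

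With no values per library a linear model had nothing to work on, so calls are the authors' q below 0.05. The main counts keep loci that reached 1 FPKM in some condition. The implied standard error is the log2 ratio over the test statistic. Read as a normal deviate, the authors' p was larger than the statistic by a median factor of 1.74. The mutants were compared on errors divided by this factor, with Benjamini-Hochberg adjustment. WT error is counted in both ratios. The comparison was tested on simulated data, with 200 of 18382 loci changed. A log2 difference of 1 was recovered at 55.5% of these loci with 6 false calls, and one of 2 at 84.5% with 11. The simulated errors of the 2 ratios were independent, while the real ratios share the WT value, so these shares need not hold for the real comparison.

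Locus starts were raised by 1 to count from 1. The members and lists were chosen with earlier results of these data known. All tested mitochondrial loci of known function were to be named. As no identifier could be matched to a function, those called, the most abundant and examples of the rest were named instead, the last after their values were seen. Of nuclear lists, the 3 called genes with the smallest q were named, ties going to the larger change, and others named were added. No sequence was used. The tools were Python 3.11.15, pandas 2.3.3, numpy 2.4.6, SciPy 1.17.1 and matplotlib 3.10.9. Alternatives were no filter, 5 FPKM, q < 0.01, a pseudocount of 0.1, loci with 1 gene name, other adjustment, scaling and error, and, chosen after the data were seen, 1 FPKM in WT, no filter for the comparison of the mutants, and sums without the 2 highest loci.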

Additional observations from a re-analysis of the deposited data

How the results depend on the processing

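The table gives 1 value per condition and no depth, so precision is known through the authors' test alone, and leaving out replicates was not possible. No paired analysis was possible because the table holds no values per library. Removing ribosomal and transfer RNA genes from the sums was not run, since the identifiers have no annotation here.

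The 2 mitochondrial rises in syd-5 became 1 over loci with 1 gene name and 0 when a doubling was required, and the 1 rise in 310-3d became 2 with no filter on FPKM. No other alternative moved these counts by more than 1.5 times, and no locus was called lower under any. In the comparison of 310-3d with syd-5 the count stayed at 0 with the unscaled error and with no filter. The median log2 fold change in syd-5 (0.38) was 0.496 with a pseudocount of 0.1, 0 with no filter, 0.49 over loci of 5 FPKM or more, 0.299 after quantile normalization, 0.45 with equal sums over nuclear loci, 0.35 over loci with 1 gene name and 0.42 over loci with 1 FPKM in WT. In 310-3d (0.36) it was, in the same order, 0.51, 0, -0.0401, 0.2997, 0.447, 0.4502 and 0.34. The filter of 5 FPKM leaves 3 loci. The cause of the other shifts was not tested. Equal sums over nuclear loci moved the median of all loci to 0.11 in syd-5 and 0.09 in 310-3d. The mitochondrial share of all FPKM, over tested loci alone, was 0.0278% in syd-5, 0.0235% in 310-3d and 0.0176% in WT, and without the 2 highest loci 0.00461%, 0.0041% and 0.00268% in the same order. Of 136 recomputed log2 ratios of single loci, 135 moved by less than their implied standard error, a limit that is wide for imprecise loci. The exception was ATMG01360 in 310-3d, called there without the filter. Its ratio of 1.13 became 0.42 with a pseudocount of 1, which pulls low values together. With the same pseudocount the merged locus ATMG00620 and ATMG00630, called in syd-5 without the filter, fell further, from 2.92 to 0.58. That shift lies within its error of 3.77, so this count does not show that imprecise ratios are stable. Of the 136 ratios, 4 changed sign, none of them a call.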

Other observations

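The sequence called Mt also holds 10 loci with no gene name, which no comparison used. In the authors' deposited table all 10 were above 0 in at least 1 condition, and the highest value was 0.814 FPKM. Their sum was 2.07 FPKM in syd-5, 2.85 in 310-3d and 1.68 in WT. The 2 tested in both comparisons were not called. The locus at 356631 to 357286 had 0.525 FPKM in syd-5, 0.814 in 310-3d and 0.155 in WT (q = 0.333 in syd-5 and q = 0.211 in 310-3d). The locus at 344241 to 344931 had 0.183 FPKM in syd-5, 0.0792 in 310-3d and 0.664 in WT (q = 0.238 in syd-5 and q = 0.337 in 310-3d).

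Loci listed at 0 on one side had low values on the other. In syd-5, 7 mitochondrial loci at 0 in WT were above 0, the highest at 0.657 FPKM, and 3 above 0 in WT were at 0. In 310-3d, 5 at 0 in WT were above 0, the highest at 0.814 FPKM, and 5 above 0 in WT were at 0.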
